A study of Mus musculus with 3072 samples.

Results

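The response of cortical microglia to amyloid in mice without Apoe was read from all cells with counts of APP/PS1-ApoeKO cortex set against all those of C57BL/6-ApoeKO cortex, 647 of the 1878 cells in the count table. The APP/PS1-ApoeKO cells, 51.6% of the 647, came from male mice aged 18 months that carry the APPswe/PS1dE9 transgenes, which express mutant human amyloid precursor protein and presenilin under a mouse prion promoter, and that lack Apoe. They were sequenced in lanes 33 and 34, which hold 25.5% and 26.1% of the 647 cells. The C57BL/6-ApoeKO cells, 48.4% of the 647, came from male mice of the same age without the transgenes and without Apoe. They were in lanes 37 and 38, with 24.3% and 24.1% of the cells. Values of APP/PS1 cortex at 17 months (lanes 41 and 42) and C57BL/6 cortex at 18 months (lanes 37 and 38), both with intact Apoe, are given beside them. Live CD11b+ cells were sorted into wells and made into libraries with a modified SmartSeq2 protocol, which counts reads and not molecules.

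ApoE is the main lipid carrier of the brain. It is made mainly by astrocytes and, around plaques, by activated microglia. When amyloid accumulates, microglia that touch plaques raise a set of genes for phagocytosis, lysosomes and lipid handling (Cst7, Clec7a, Itgax, Axl, Lpl, Spp1 and others) and lower genes typical of resting microglia (P2ry12, Cx3cr1, Tmem119). The receptor TREM2, which binds lipids and ApoE, drives a large part of that change.

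The labels name no animal, so each group is 1 sample and no p-value is given. A level is the reads of a gene per 1000000 reads (RPM) over the summed cells of a group or lane, and a log2 ratio has 0.5 RPM added to both levels. Intervals on ratios are exact 95% intervals for counting error only and are too narrow, since PCR copies are counted as reads. The spread reported beside each ratio is that of the 4 lane pairs, each of the lanes 33 and 34 over each of the lanes 37 and 38. Lanes and groups are confounded, because APP/PS1-ApoeKO and C57BL/6-ApoeKO cortex share no lane, so a lane effect and an effect of the transgenes cannot be told apart. A difference in the number of cells that express a gene cannot be told apart from one in RNA per cell in the summed levels, so shares of cells are given for the leading genes.

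The APP/PS1-ApoeKO cells held 117409 to 777556 reads each (median 429392) and the C57BL/6-ApoeKO cells 68354 to 1106724 (median 689276). The median number of genes per cell was 2362 and 2105 in lanes 33 and 34, against 2216 and 2299.5 in lanes 37 and 38. The labels give a depth for the cells of lane 34 and for none of lane 33. P2ry12, the purinergic receptor that marks microglia, had reads in 99.1% of APP/PS1-ApoeKO and 99.7% of C57BL/6-ApoeKO cells. The marker lists of neutrophils, T or NK cells and erythrocytes summed to at most 0.055 RPM in both groups, and those of border macrophages to 8.21 RPM in APP/PS1-ApoeKO and 9.54 RPM in C57BL/6-ApoeKO cortex. In the same order of groups the B cell list, mostly Ighm, summed to 624.1 and 667.4 RPM. The astrocyte list, mostly Slc1a3, summed to 314.03 and 338.8 RPM and the oligodendrocyte list to 182.2 and 213.9 RPM. The neuron list held 9.01 and 15.6 RPM and the endothelial or mural list 21.4 and 25.02 RPM. Apoe was read at 0.0714 and 0.0669 RPM in lanes 33 and 34 of APP/PS1-ApoeKO cortex and at 1.77 and 4.12 RPM in lanes 37 and 38 of C57BL/6-ApoeKO cortex, against 10557 and 15952 RPM in the lanes of APP/PS1 and 313.1 and 636.9 RPM in those of C57BL/6 cortex. Of the 589 Apoe reads in C57BL/6-ApoeKO cortex all lay in 5 cells, and the low level in both groups went with the knockout label. The monocyte list summed to 21.5 RPM in APP/PS1-ApoeKO and 3.33 RPM in C57BL/6-ApoeKO cortex, mostly Ccr2 in 13 and 8 cells, with Chil3 at 0 in APP/PS1-ApoeKO and Ly6c2, Vcan and Fn1 at 0 in C57BL/6-ApoeKO cortex. Its part in the results was not tested.

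Few genes separated the groups in the absence of Apoe. A gene was considered when 1 group reached 20 RPM and had it in 10% of its cells, which left 6070 genes. In APP/PS1-ApoeKO cortex 26 of them (0.428%) were higher by 2-fold or more in the group sums and in each of the 4 lane pairs, and 4 (0.0659%) were lower by as much. Without the wells of rows A and H, chosen after seeing the data, 29 genes were higher by this rule and 10 of these were among the 26, of which 21 were still at least 2-fold higher in the sums. In the sums alone 110 (1.81%) were higher and 65 (1.07%) lower, 2.88% in all. Single lanes hold fewer cells than the group sums, so shares from single lanes cannot be set against the 2.88%. Within the groups, 6.03% of the 6070 genes were at least 2-fold apart between lanes 33 and 34, and 6.8% between lanes 37 and 38. Across the groups the share was 8.62% and 7.58% for lane 33 over lanes 37 and 38, and 8.7% and 8.32% for lane 34 over the same lanes. With Apoe, 59 of 6009 genes (0.982%) were higher and 75 (1.25%) lower in APP/PS1 than in C57BL/6 cortex by the same rule. No gene met the rule in the same direction in both comparisons, which says little with such small shares called in each. Of the 59, 57 had at least 1 RPM without Apoe, and 38 of these were higher in APP/PS1-ApoeKO cortex (52.4% of all genes), with a median log2 ratio of 0.25. Of the 75, 74 had that level, and 33 of these were higher, with a median of -0.03. The median over all genes was 0.03. The with-Apoe comparison uses other cells, differs by 1 month between its groups and was not tested against the comparison without Apoe.

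**Figure D1:**
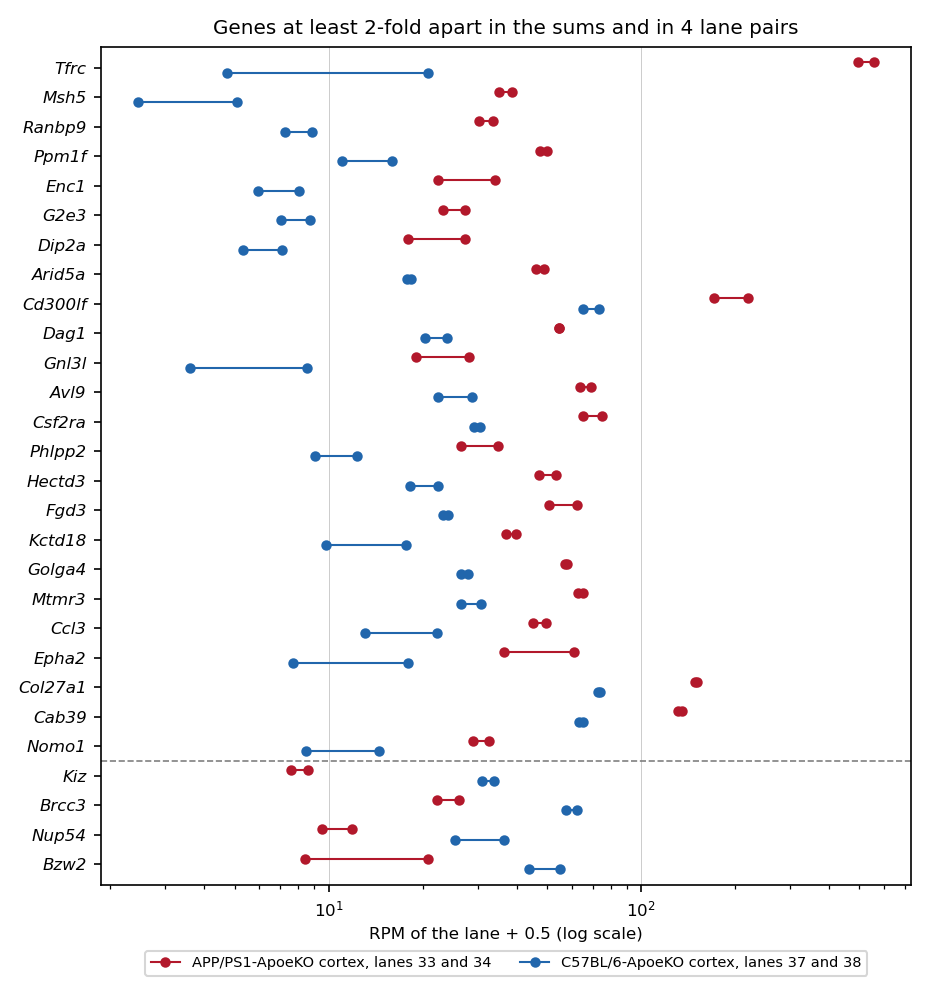
Levels (RPM + 0.5, log scale) of 28 of the 30 genes at least 2-fold apart in the sums and in all 4 lane pairs; the other 2 are predicted genes. Red points are the lanes of APP/PS1-ApoeKO cortex and blue points those of C57BL/6-ApoeKO cortex, joined within a group; genes above the dashed line were higher in APP/PS1-ApoeKO cortex, and Tfrc stands farthest apart.

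The genes of the plaque-associated response were higher in APP/PS1-ApoeKO cortex by small amounts in most cases. Of 24 genes on the activated list, 20 had at least 1 RPM; 18 were higher and 2 lower in APP/PS1-ApoeKO cortex, against 52.4% higher of all 12843 genes with that level. In each of the 4 lane pairs 10 were higher (20.2% of all genes), and in the sums 6 were at least 2-fold higher (9.48% of all genes) and 1 at least 2-fold lower (7.28%). Of the 20, 11 reached the level and share of cells that the 2-fold rule asks for and none of these 11 met it; of the other 9, Igf1 was over 2-fold higher in all 4 lane pairs. The list's median log2 ratio was 0.44, between 0.31 and 0.38 in the lane pairs, against 0.03 over all genes. With Apoe, 22 of 22 measured members were higher in APP/PS1 than in C57BL/6 cortex (43.2% of all 12532 genes), and the median was 2.37 against -0.10 over all genes. The median without Apoe was lower without some wells: it was 0.21 without plate 3 of APP/PS1-ApoeKO cortex and 0.084 without the wells in the first and last row and column of every plate. That setting was also chosen after seeing the data.

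Cst7, a cystatin that inhibits cathepsins, was read at 158.1 and 109.2 RPM in the lanes of APP/PS1-ApoeKO cortex, against 69.4 and 54.1 RPM in those of C57BL/6-ApoeKO cortex. The ratio of the sums was 2.16 (2.11 to 2.21), and the log2 ratio was 1.10 (0.65 to 1.54 in the lane pairs). The lanes did not overlap, but the plates did: they held 66.8 to 237.2 RPM in APP/PS1-ApoeKO and 43.9 to 101.3 RPM in C57BL/6-ApoeKO cortex. Its reads were concentrated, as 3 of the 53 APP/PS1-ApoeKO cells with reads held 51.6% of them, and without the 3 cells richest in Cst7 of each group the log2 ratio was 0.49. With Apoe, Cst7 was read at 400.8 and 375.5 RPM in APP/PS1 cortex, against 6.14 and 5.21 RPM in C57BL/6 cortex, so the level of C57BL/6-ApoeKO cortex was above that of C57BL/6 cortex in each of their shared lanes.

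Axl, a receptor tyrosine kinase that binds bridged phosphatidylserine on dying cells, was read at 44.8 and 37.8 RPM in APP/PS1-ApoeKO cortex, against 20.8 and 16.3 RPM in C57BL/6-ApoeKO cortex, a log2 ratio of 1.13 (0.85 to 1.43 in the lane pairs). Its lanes did not overlap either, and 7.19% of APP/PS1-ApoeKO cells (4.66 to 10.5, exact binomial interval) held a read against 2.60% (1.13 to 5.05) of C57BL/6-ApoeKO cells when each cell was thinned to 100000 reads. Without the outer rows and columns its log2 ratio was 1.08 and that of Cst7 0.22. With Apoe the share of cells with an Axl read was 19.9% in APP/PS1 and 1.84% in C57BL/6 cortex.

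Clec7a, the beta-glucan receptor dectin-1, was read at 46.1 and 55.4 RPM in APP/PS1-ApoeKO cortex, against 35.3 and 29.8 RPM in C57BL/6-ApoeKO cortex, with a log2 ratio of 0.64 (0.38 to 0.88). The log2 ratio was 0.43 without rows A and H, 0.025 without the outer rows and columns and 0.095 without the cells over 1000 RPM of other immune markers. Almost the same share of cells held it, 6.89% (4.42 to 10.2) against 6.17% (3.75 to 9.47). Itgax, the integrin CD11c, had overlapping lanes, with 30.7 and 13.03 RPM in APP/PS1-ApoeKO and 9.004 and 19.97 RPM in C57BL/6-ApoeKO cortex. Cd9, a tetraspanin that nearly all microglia express, was read at 1782 and 2036 RPM in APP/PS1-ApoeKO cortex, against 1559 and 1490 RPM in C57BL/6-ApoeKO cortex.

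The largest ratios on the list rested on few cells and mostly on lane 33. Lpl, the lipoprotein lipase, was read at 119.004 and 16.3 RPM in lanes 33 and 34 of APP/PS1-ApoeKO cortex, against 15.5 and 4.16 RPM in lanes 37 and 38 of C57BL/6-ApoeKO cortex, and 3 cells held 87.2% of its APP/PS1-ApoeKO reads. Its log2 ratio was 2.70, and 0.034 without the outer rows and columns. Igf1, the growth factor, was read at 17.8 and 2.47 RPM in 6 APP/PS1-ApoeKO cells and had no read in C57BL/6-ApoeKO cortex. Its log2 ratio was 4.37, and 2.46 without the outer rows and columns. Without the 3 cells richest in Igf1 it was 1.15, with 0.607 RPM left in APP/PS1-ApoeKO cortex, so the size of the ratio is not known. Lgals3, the lectin galectin-3, was read at 56.5 RPM in lane 33, in 4 cells, and in no cell of lane 34 or of C57BL/6-ApoeKO cortex. Spp1, osteopontin, had no read in APP/PS1-ApoeKO cortex and 9.10 and 0 RPM in the C57BL/6-ApoeKO lanes, and was read at 22.9 and 16.97 RPM in the APP/PS1 lanes. Fabp5 and Gpnmb were under 1 RPM without Apoe.

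**Figure D2:**
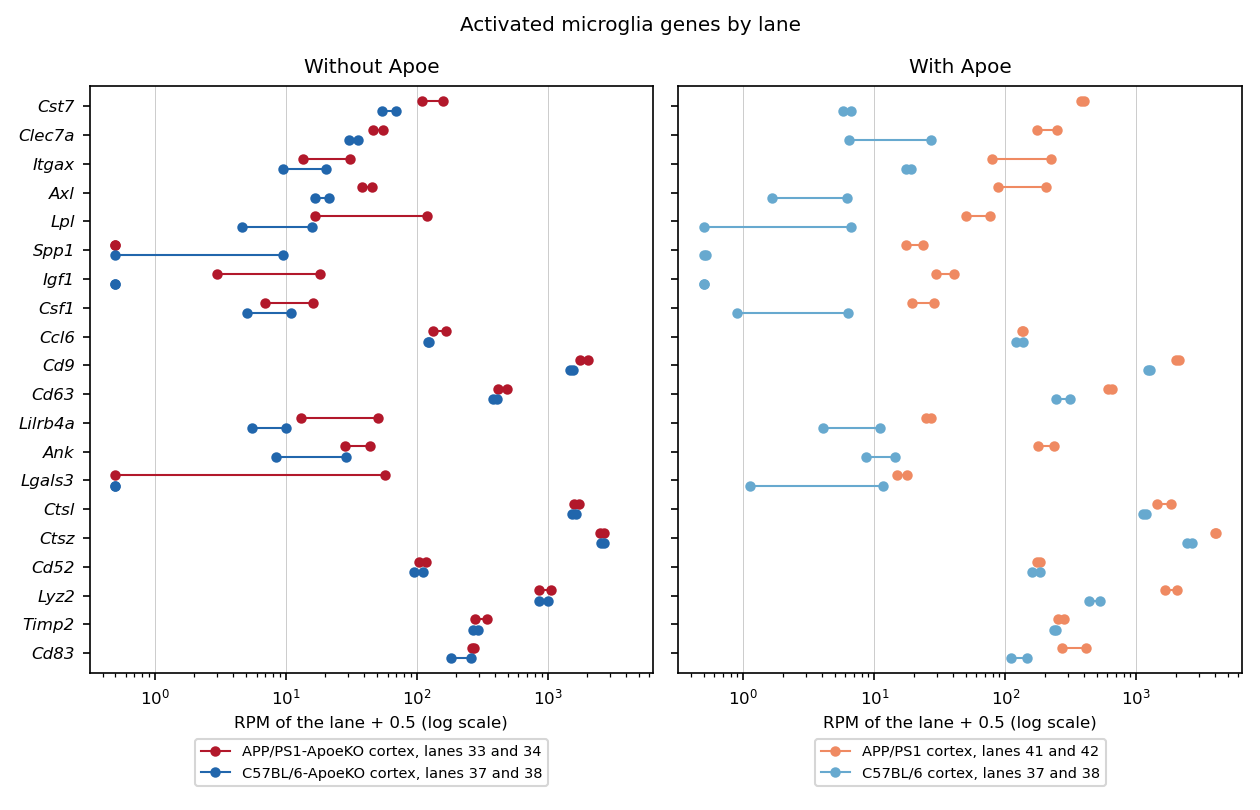
Levels (RPM + 0.5, log scale) by lane of the 20 activated genes with at least 1 RPM without Apoe, in APP/PS1-ApoeKO and C57BL/6-ApoeKO cortex (left) and in APP/PS1 and C57BL/6 cortex (right). Joined points are the lanes of 1 group; Cst7, Axl and Clec7a stand apart by a little on the left and by far more on the right, and Lgals3 was read in 1 lane of APP/PS1-ApoeKO cortex alone.

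Cells with several genes of the activated core were rare without Apoe. The core is 10 of the activated genes (Cst7, Clec7a, Itgax, Axl, Lpl, Spp1, Igf1, Csf1, Fabp5 and Gpnmb), and a count of its genes per cell is a range and not a cell type. After thinning, 8 APP/PS1-ApoeKO cells had reads of at least 3 of them, 2.40% (1.04 to 4.66), against 4 C57BL/6-ApoeKO cells, 1.30% (0.355 to 3.29), with 5 shallower cells left out. The intervals cover counting error over cells and compare no animals. The shares were 3.03% and 1.78% in lanes 33 and 34. With at least 1 core gene the shares were 33.2% (28.2 to 38.6) and 23.4% (18.8 to 28.5), and with at least 2 they were 10.8% (7.66 to 14.6) and 4.22% (2.27 to 7.11). In APP/PS1 cortex 61 cells had at least 3, 19.6% (15.3 to 24.5), and in C57BL/6 cortex 2 cells, 0.613% (0.0744 to 2.20).

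The summed level of the core was 449.2, 401.8, 309.3 and 195.9 RPM in plates 1 to 4 of APP/PS1-ApoeKO cortex, against 219.8, 106.9, 128.4 and 132.3 RPM in those of C57BL/6-ApoeKO cortex. Plate 4 of APP/PS1-ApoeKO cortex was below plate 1 of C57BL/6-ApoeKO cortex, so the plates overlapped. The level also followed the position of the wells: it was 518.5 RPM in the 38.02% of APP/PS1-ApoeKO cells in the outer rows and columns and 204.4 RPM in the others. In C57BL/6-ApoeKO cortex it was 123.1 RPM in the 36.4% of outer cells and 165.25 RPM in the others. Of the 8 APP/PS1-ApoeKO cells with at least 3 core genes, 6 lay in the outer wells. The part of well position in the difference between the groups was not tested.

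**Figure D3:**
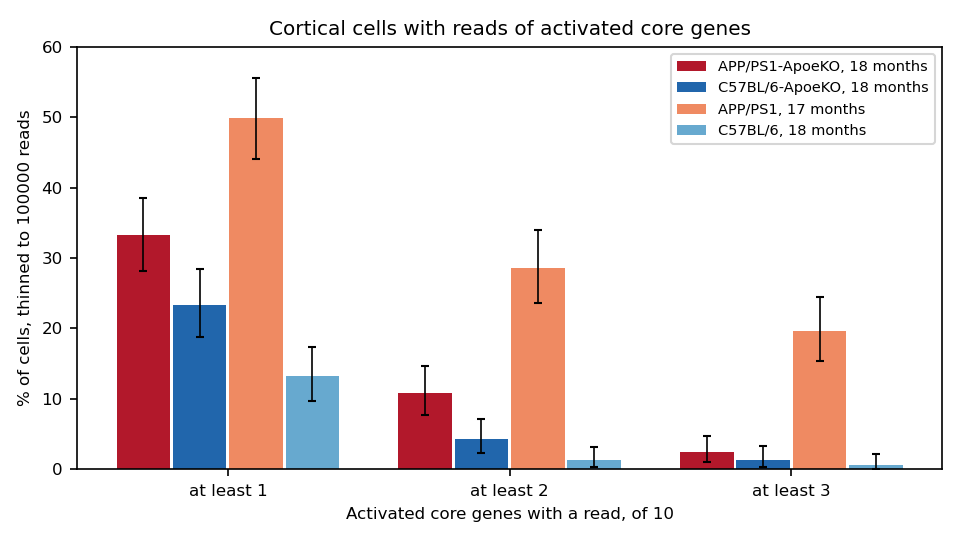
Share of cells (%) with reads of at least 1, 2 or 3 of the 10 activated core genes after thinning each cell to 100000 reads, in APP/PS1-ApoeKO, C57BL/6-ApoeKO, APP/PS1 and C57BL/6 cortex. Error bars are exact 95% binomial intervals over cells; for at least 3 genes the share was 2.40% in APP/PS1-ApoeKO and 19.6% in APP/PS1 cortex.

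Genes of resting microglia were lower by small amounts in APP/PS1-ApoeKO cortex. Of the 20 homeostatic genes 15 were lower and 5 higher; 12 were lower in every lane pair and none reached 2-fold. The median was -0.19 (-0.31 to -0.11 in the lane pairs). Of all 636 genes with at least 200 RPM, the range in which all of these 20 genes lie, 54.4% were lower and 28% lower in all 4 lane pairs. The list's median was -0.16 without the wells of rows A and H and -0.36 in the comparison with Apoe.

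Slc2a5, a fructose transporter used as a microglial marker, was read at 666 and 768 RPM in APP/PS1-ApoeKO cortex, against 1119 and 1047 RPM in C57BL/6-ApoeKO cortex, a log2 ratio of -0.59 (-0.75 to -0.45). Fcrls, a microglial Fc receptor-like protein, was read at 1655 and 2267 RPM in APP/PS1-ApoeKO cortex, against 2729 and 2913 RPM in C57BL/6-ApoeKO cortex (-0.52, from -0.82 to -0.27). For both genes each lane and each plate of APP/PS1-ApoeKO cortex was below each of C57BL/6-ApoeKO cortex. P2ry12 was read at 4591 and 5566 RPM in APP/PS1-ApoeKO cortex, against 5734 and 5826 RPM in C57BL/6-ApoeKO cortex, and Cx3cr1, the fractalkine receptor, at 9687 and 10858 RPM, against 11354 and 12117 RPM. Siglech, a sialic acid receptor, and Sall1, the transcription factor of microglial identity, were the members higher in all 4 lane pairs (22.3% of the 636 genes were), with log2 ratios of 0.13 and 0.18. Trem2 was read at 2689 and 2697 RPM in APP/PS1-ApoeKO cortex, against 2561 and 2386 RPM in C57BL/6-ApoeKO cortex (log2 ratio 0.12), and its adaptor Tyrobp had a log2 ratio of -0.01.

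Type I interferon acts through a transcription factor complex that includes IRF9 and binds repeated GAAA elements in the promoters of antiviral genes. All 28 interferon-response genes had a mean of at least 1 RPM over the groups compared. Of these, 21 were higher and 7 lower in APP/PS1-ApoeKO cortex, with 10 higher and 1 lower in every lane pair. Of all genes with at least 1 RPM 52.4% were higher, 20.2% were higher in every lane pair and 17.2% lower in every one. The median was 0.33 (0.17 to 0.63 in the lane pairs), 0.23 without rows A and H and 0.25 without the outer rows and columns. With Apoe, 21 of 26 were higher in APP/PS1 cortex (43.2% of all genes) and the median was 0.68. The 2-fold rule could be applied to 13 of the 28 without Apoe and none of them met it, while Irf7 and Oasl2, read in too few cells for it, were over 2-fold apart in all lane pairs.

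Promoter sequences were taken from RefSeq on GRCm38.p6, 250 bases before to 50 after the start of the gene, and 21 of the 28 genes matched. The motif, GAAA followed after any 2 bases by a further GAAA, was searched on both strands with overlapping matches kept, and was in 12 of those 21 windows (57.1%) and in 943 of all 27025 (3.49%). Among the 12 genes with the motif 9 were higher in APP/PS1-ApoeKO cortex, and among the 9 without it 5 were. In all 4 lane pairs 2 of the 12 with the motif and 4 of the 9 without it were higher. Cxcl10, which holds the motif, had the lowest log2 ratio on the list, -5.06. It had no read left in either group without the 3 cells of each group richest in it. The windows below are those of the 2 genes that hold the motif and were higher in all 4 lane pairs, Isg15 and Oas1a. The window of Irf7, which has the highest log2 ratio on the list and no such match, is given as well. Each is shown in the direction of the gene, all 3 on the minus strand, with the motif in capitals (chr4:156200769-156201068 for Isg15, chr5:120907476-120907775 for Oas1a and chr7:141266375-141266674 for Irf7).
Isg15: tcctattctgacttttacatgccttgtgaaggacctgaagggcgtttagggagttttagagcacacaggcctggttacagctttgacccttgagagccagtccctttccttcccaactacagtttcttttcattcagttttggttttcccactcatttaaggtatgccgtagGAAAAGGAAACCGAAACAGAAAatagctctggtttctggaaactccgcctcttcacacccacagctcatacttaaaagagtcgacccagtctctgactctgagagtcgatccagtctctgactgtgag
Oas1a: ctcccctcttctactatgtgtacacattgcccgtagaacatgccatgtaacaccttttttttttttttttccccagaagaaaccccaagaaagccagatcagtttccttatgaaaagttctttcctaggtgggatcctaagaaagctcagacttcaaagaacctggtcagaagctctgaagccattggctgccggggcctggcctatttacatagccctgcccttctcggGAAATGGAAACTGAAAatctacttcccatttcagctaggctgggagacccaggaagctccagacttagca
Irf7: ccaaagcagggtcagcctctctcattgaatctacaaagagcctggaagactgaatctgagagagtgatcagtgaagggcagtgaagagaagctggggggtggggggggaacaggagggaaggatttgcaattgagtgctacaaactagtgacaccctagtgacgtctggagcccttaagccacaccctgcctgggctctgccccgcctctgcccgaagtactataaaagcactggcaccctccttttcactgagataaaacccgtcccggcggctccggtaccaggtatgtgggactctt
The 3 matches of Isg15 overlap and form 1 run, as do the 2 of Oas1a.

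Irf7, the factor that amplifies interferon production, was read at 33.6 and 16.2 RPM in APP/PS1-ApoeKO cortex, against 3.41 and 4.82 RPM in C57BL/6-ApoeKO cortex, a log2 ratio of 2.44 (1.65 to 3.12). It was read in 15 and 5 cells, under the 10% of cells that the 2-fold rule asks for. Irf9, a DNA-binding subunit of the complex that interferon activates, was read at 98.7 and 152.3 RPM in APP/PS1-ApoeKO cortex, against 52.97 and 89.2 RPM in C57BL/6-ApoeKO cortex (0.82).

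Isg15, a ubiquitin-like modifier, was read at 2.01 and 1.94 RPM in APP/PS1-ApoeKO cortex, against 0.900 and 0.525 RPM in C57BL/6-ApoeKO cortex, in 9 cells of each. Its log2 ratio was 1.03, and 0.21 without the 3 cells of each group richest in it (0.412 against 0.290 RPM). Oas1a, a sensor of double-stranded RNA, had a log2 ratio of 0.32 and its relative Oasl2 one of -1.54 (-1.91 to -1.09), with 15.04 and 12.8 RPM in APP/PS1-ApoeKO cortex, against 32.6 and 49.5 RPM in C57BL/6-ApoeKO cortex. Cells with reads of at least 3 of the 28 genes after thinning made up 49.1% (43.6 to 54.6) of APP/PS1-ApoeKO cortex, 53.9% in lane 33 and 44.4% in lane 34. The share was 38.6% (33.2 to 44.3) in C57BL/6-ApoeKO cortex, with 35.3% in lane 37 and 41.9% in lane 38. It was 36.01% (30.7 to 41.6) in APP/PS1 and 20.6% (16.3 to 25.4) in C57BL/6 cortex.

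Antigen presentation genes differed in both directions. Of 15 MHC class I genes 8 were higher and 7 lower (52.4% and 47.6% of all genes). The median was 0.01 in the sums and -0.10 to -0.04 in the lane pairs. The heavy chains H2-K1 and H2-D1 and the light chain B2m were higher in all lane pairs, with log2 ratios of 0.40, 0.34 and 0.25, while the immunoproteasome subunit Psmb10 and the proteasome activator Psme1 were lower in all of them (-0.54 and -0.49). Of 7 measured MHC class II genes 5 were lower, 4 of them in all lane pairs (17.2% of all genes), and the median was -0.41. Cd74, the invariant chain, was read at 19.9 and 22.4 RPM in APP/PS1-ApoeKO cortex, against 27.4 and 28.98 RPM in C57BL/6-ApoeKO cortex. With Apoe it was read at 313.9 and 145.6 RPM in APP/PS1, against 35.8 and 23.6 RPM in C57BL/6 cortex.

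Of 12 measured cytokine and chemokine genes 8 were higher (52.4% of all genes), 3 of them in all lane pairs (20.2%). The list's median was 0.28 (-0.01 to 0.41 in the lane pairs), and 1 gene met the 2-fold rule. That gene was Ccl3, an inflammatory chemokine, with 49.1 and 44.6 RPM in APP/PS1-ApoeKO cortex, against 21.7 and 12.5 RPM in C57BL/6-ApoeKO cortex. Its ratio was 2.75 (2.64 to 2.86), the plates did not overlap (35.02 to 55.1 RPM in APP/PS1-ApoeKO and 4.48 to 22.4 RPM in C57BL/6-ApoeKO cortex), and 18.3% (14.3 to 22.8) of cells held a read against 11.4% (8.04 to 15.4). Ccl4, its neighbour and relative, was read at 13.4 and 10.2 RPM in APP/PS1-ApoeKO cortex, against 3.10 and 6.59 RPM in C57BL/6-ApoeKO cortex. Without rows A and H the log2 ratio of Ccl3 was 1.33, and its lowest lane pair was 0.91. Nfkbia, the inhibitor induced by NF-kB, was read at 188.5 and 147.4 RPM in APP/PS1-ApoeKO cortex, against 75.3 and 115.1 RPM in C57BL/6-ApoeKO cortex (0.81). Its list of NF-kB feedback genes had 12 measured members, of which 7 were higher and 5 lower. In all lane pairs 2 were higher and 3 lower. The list's median was 0.04 (-0.32 to 0.14 in the lane pairs).

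Of 10 measured receptors of the Siglec and CD300 families, which bind sialic acids and membrane lipids, 8 were higher (52.4% of all genes), 6 of them in all lane pairs (20.2%), with a median of 0.47 (0.30 to 0.56). The list's median was 0.43 both without rows A and H and without the outer rows and columns, and 0.17 with Apoe. Cd300lf (chr11:115116214-115133992, minus strand, GRCm38, GENCODE vM21), a receptor for phosphatidylserine and ceramide, met the 2-fold rule with a broad distribution over cells. It was read at 220 and 170.2 RPM in APP/PS1-ApoeKO cortex, against 72.9 and 64.8 RPM in C57BL/6-ApoeKO cortex, a ratio of 2.82 (2.77 to 2.88) and a log2 ratio of 1.49 (1.22 to 1.75). Every plate of APP/PS1-ApoeKO cortex (155.7 to 266.5 RPM) was above every plate of C57BL/6-ApoeKO cortex (38.96 to 93.3 RPM). A read was found in 56.6% of thinned APP/PS1-ApoeKO cells (51.1 to 61.97), against 25.97% (21.2 to 31.2) of C57BL/6-ApoeKO cells. Its log2 ratio was 1.58 without rows A and H, 1.68 without the outer rows and columns and 1.63 without the 3 richest cells of each group.

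With Apoe, Cd300lf was read at 462 and 417 RPM in APP/PS1 and at 189.05 and 242.4 RPM in C57BL/6 cortex, in 77.5% and 56.8% of cells. The level of APP/PS1-ApoeKO cortex was thus close to that of C57BL/6 cortex, and the lowest was C57BL/6-ApoeKO cortex. Cd300ld, the gene of a related receptor nearby (chr11:114982274-114989922, minus strand), was read at 10.2 and 8.39 RPM in APP/PS1-ApoeKO cortex, against 1.78 and 1.45 RPM in C57BL/6-ApoeKO cortex, and in 24.6% (20.03 to 29.5) against 10.4% (7.22 to 14.4) of thinned cells. Reads of Cd300lf may include some of Rab37, which overlaps it on the other strand, since strand-specific counting is not stated.

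In lipid handling 13 of 16 measured transport and efflux genes were higher (52.4% of all genes), 7 of them in all lane pairs (20.2%), with a median of 0.33 (0.13 to 0.45), and 0.20 without rows A and H. Scarb1, the HDL receptor SR-BI, was read at 73.1 and 78.2 RPM in APP/PS1-ApoeKO cortex, against 30.3 and 45.96 RPM in C57BL/6-ApoeKO cortex, a ratio of 1.98 (1.92 to 2.04). Lrp1, a receptor for ApoE and other ligands, was read at 999 and 773 RPM in APP/PS1-ApoeKO cortex, against 691 and 667 RPM in C57BL/6-ApoeKO cortex, and Abca1, the exporter that loads cholesterol onto apolipoproteins, at 773 and 792 RPM, against 594 and 698 RPM. The phospholipid remodelling enzymes Lpcat2 and Lpcat3 were lower in all lane pairs (-0.43 and -0.52). Among 24 lysosomal genes 10 were higher and 14 lower (median -0.03). Npc1, the exporter of cholesterol from lysosomes, stood out with 236.8 and 263.2 RPM in APP/PS1-ApoeKO cortex, against 145.2 and 166.5 RPM in C57BL/6-ApoeKO cortex (0.68, from 0.51 to 0.86). Of 17 measured genes of cholesterol synthesis 8 were higher and 9 lower.

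Most genes of energy metabolism and ribosomes were lower, and the list medians were lower by less than 2-fold. Of 20 glycolysis genes 17 were lower, 8 of them in all lane pairs, and the median was -0.35 (-0.35 to -0.25). In the sums 2 were at least 2-fold lower (7.28% of all genes), and 1 of them, Pfkp, was so in all lane pairs. Gapdh was read at 264.6 and 226.1 RPM in APP/PS1-ApoeKO cortex, against 419.1 and 363.9 RPM in C57BL/6-ApoeKO cortex, a log2 ratio of -0.68. Hif1a, the oxygen-sensitive factor that raises glycolysis, was the member higher in all lane pairs (0.43). With Apoe 17 of 19 glycolysis genes were higher in APP/PS1 cortex (43.2% of all genes), with a median of 0.46. Of 19 respiratory chain genes 18 were lower, 12 in all lane pairs, with a median of -0.28 (-0.50 to -0.12). Cox5a, a subunit of complex IV, was read at 16.2 and 18.02 RPM in APP/PS1-ApoeKO cortex, against 27.6 and 27.04 RPM in C57BL/6-ApoeKO cortex. Of 76 cytosolic ribosomal protein genes 66 were lower, 45 in all lane pairs, with a median of -0.19 (-0.23 to -0.14). The share of all genes that were lower was 47.6%, and 17.2% were lower in all lane pairs. These medians were -0.41, -0.20 and -0.21 without rows A and H. The C57BL/6-ApoeKO cells were deeper and held less mitochondrial RNA (median 2.59% of reads in APP/PS1-ApoeKO and 2.19% in C57BL/6-ApoeKO cells), and with cells thinned to 100000 reads the medians were -0.34, -0.39 and -0.34.

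**Figure D4:**
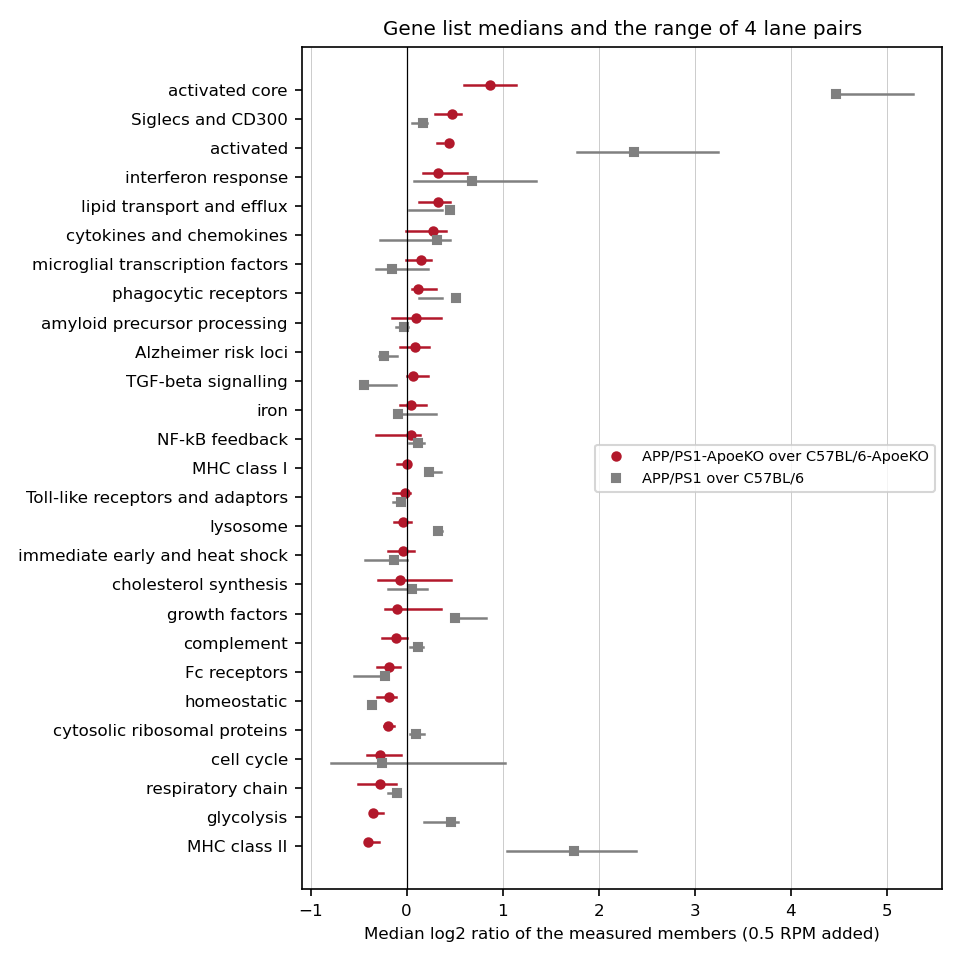
Median log2 ratio (0.5 RPM added) of the measured members of 27 gene lists, for APP/PS1-ApoeKO over C57BL/6-ApoeKO cortex (red circles) and APP/PS1 over C57BL/6 cortex (grey squares); lines span the 4 lane pairs. The activated core lies at 0.87 without Apoe and at 4.47 with it, and glycolysis at -0.35 and 0.46.

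Complement, Fc receptor and risk genes differed little in their list medians. Of all genes with at least 1 RPM 47.6% were lower. Of 9 measured complement genes 8 were lower (median -0.11, and 6 lower with totals that leave out ribosomal RNA and mitochondrial genes); C1qa, a chain of the initiating complex, was read at 4961 and 4937 RPM in APP/PS1-ApoeKO cortex, against 5491 and 5247 RPM in C57BL/6-ApoeKO cortex. C4b, also on the complement list, was at least 2-fold lower in the sums and in all 4 lane pairs. It missed the level or the share of cells that the 2-fold rule asks for. Of 7 Fc receptor genes 6 were lower (median -0.18), or 5 with totals that leave out ribosomal RNA and mitochondrial genes. Of 21 measured genes at Alzheimer risk loci 12 were higher and 9 lower, with Picalm, an adaptor of clathrin endocytosis, highest among those that were higher in all lane pairs (359.01 and 360.1 RPM in APP/PS1-ApoeKO cortex, against 206.9 and 268.5 RPM in C57BL/6-ApoeKO cortex). Ms4a6b, of the MS4A cluster, was lower, with 106.6 and 88.1 RPM in APP/PS1-ApoeKO cortex, against 161.7 and 175.7 RPM in C57BL/6-ApoeKO cortex (-0.80, from -0.99 to -0.60). Another risk gene, 1 of the 21, was at least 2-fold lower in the sums. App was read at 82.8 and 113.9 RPM in APP/PS1-ApoeKO cortex, against 98.8 and 75.1 RPM in C57BL/6-ApoeKO cortex, with overlapping lanes.

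Tfrc, the transferrin receptor that imports iron (chr16:32608920-32632794, plus strand), had the highest ratio of the 30 genes, and its reads followed the position of the wells. It was read at 495 and 558 RPM in APP/PS1-ApoeKO cortex, against 4.22 and 20.2 RPM in C57BL/6-ApoeKO cortex, a ratio of 42.7 (41.02 to 44.5). Of its APP/PS1-ApoeKO reads 91.7% lay in 42 wells, those of row A of plate 1 and row H of plates 2, 3 and 4, and all 42 cells there held reads. The level was 3900 RPM in those cells and 49.8 RPM in the others, of which 31 held reads (10.6%). In the same wells of C57BL/6-ApoeKO cortex it was 14.8 RPM, with reads in 1 of 40 cells. The other APP/PS1-ApoeKO cells with reads followed position too. In row A of plates 2, 3 and 4 reads were held by 6 of 10, 5 of 11 and 7 of 12 cells, at 75.5, 36.8 and 79.5 RPM. Without rows A and H the levels were 13.2 RPM in APP/PS1-ApoeKO and 10.99 RPM in C57BL/6-ApoeKO cortex (log2 ratio 0.26), and without the outer rows and columns the log2 ratio was -0.83.

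Tfr2, the gene of the second transferrin receptor, was looked at after this was seen, and had reads in 26 of the 42 wells and in 2 of the other cells (0.685%). Of 5712 genes with at least 20 RPM in APP/PS1-ApoeKO cortex, 4 had over 50% of their reads in 1 row (Tfrc, Camk2a, Cnnm3 and Ints5), and in C57BL/6-ApoeKO cortex 5 of 5550 had. Among 13 measured iron genes 7 were higher (52.4% of all genes) and 6 lower, with a median of 0.05. Ftl1, the ferritin light chain, was read at 535 and 523 RPM in APP/PS1-ApoeKO cortex, against 427 and 427 RPM in C57BL/6-ApoeKO cortex.

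**Figure D5:**
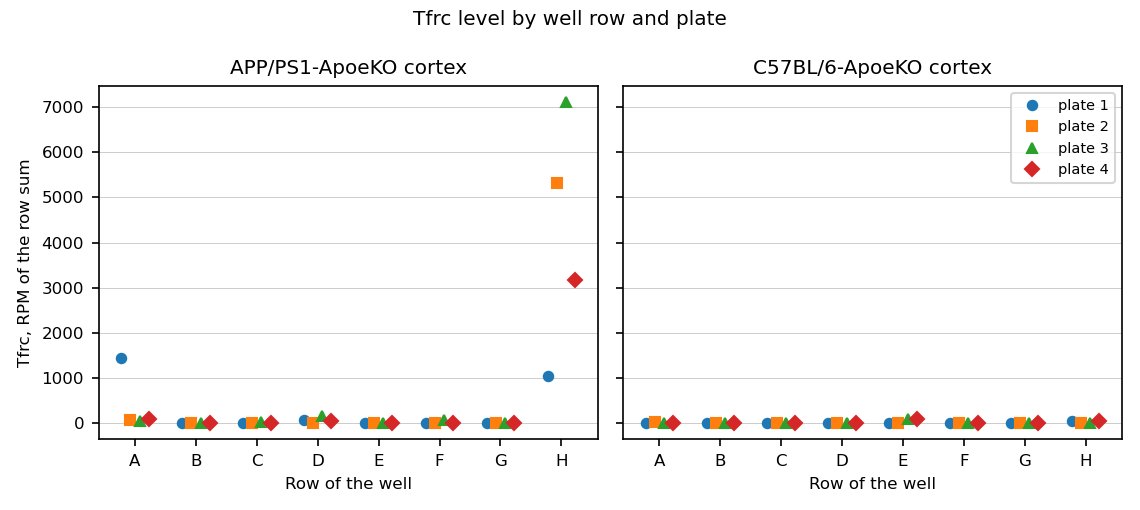
Tfrc level (RPM of the summed cells of a row) by well row A to H and plate, in APP/PS1-ApoeKO cortex (left) and C57BL/6-ApoeKO cortex (right). In APP/PS1-ApoeKO cortex row A of plate 1 and row H of plates 2 to 4 stand out, while row H of plate 1 is raised by 1 cell of 12011 RPM.

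The other leading genes, ranked by the smallest of their 4 lane-pair ratios with predicted genes left out, were mostly read in few cells. Msh5, a MutS homologue that acts in meiotic recombination, was read at 34.6 and 38.04 RPM in 55 APP/PS1-ApoeKO cells, against 1.95 and 4.61 RPM in 6 C57BL/6-ApoeKO cells, a ratio of 11.02 (10.2 to 11.97). A read was found in 15.9% (12.1 to 20.2) of thinned cells against 0.974% (0.201 to 2.82), and the levels with Apoe were 1.85 and 6.67 RPM in APP/PS1 and 9.24 and 4.36 RPM in C57BL/6 cortex. Msh5 was considered through its level in APP/PS1-ApoeKO cortex alone, so a high level in that group was part of how it was picked. The log2 ratio of Msh5 was 3.28 without rows A and H. Ranbp9, a scaffold protein of an E3 ubiquitin ligase complex, was read at 29.7 and 33.2 RPM in APP/PS1-ApoeKO cortex, against 6.74 and 8.32 RPM in C57BL/6-ApoeKO cortex (1.99, from 1.78 to 2.22). Ppm1f, a phosphatase of CaM kinases, was read at 47.1 and 49.5 RPM in APP/PS1-ApoeKO cortex, against 10.6 and 15.5 RPM in C57BL/6-ApoeKO cortex (1.85).

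Enc1, an actin-binding protein, had a log2 ratio of 2.00, G2e3, a ubiquitin ligase, 1.68, Dip2a 1.88, Gnl3l, a nucleolar GTPase, 1.96, Avl9 1.37 and Dag1, the matrix receptor dystroglycan, 1.31. Each of these 6 genes was read in 35 to 60 APP/PS1-ApoeKO cells and 15 to 42 C57BL/6-ApoeKO cells. Arid5a, an RNA-binding protein that stabilises inflammatory transcripts, was read at 48.3 and 45.6 RPM in APP/PS1-ApoeKO cortex, against 17.9 and 17.3 RPM in C57BL/6-ApoeKO cortex, with lane pairs between 1.33 and 1.46. Csf2ra, the GM-CSF receptor chain, falls outside the 12 leading genes and was picked after its values were seen, as it was read more broadly, in 34.4% of APP/PS1-ApoeKO and 20.8% of C57BL/6-ApoeKO cells. Its lanes held 64.6 and 74.5 RPM in APP/PS1-ApoeKO cortex, against 29.9 and 28.8 RPM in C57BL/6-ApoeKO cortex. Without rows A and H, Msh5, Ranbp9, Ppm1f, G2e3, Arid5a, Cd300lf, Gnl3l and Avl9 of the 12 leading genes kept to the 2-fold rule, and Tfrc, Enc1, Dip2a and Dag1 did not. Enc1 was still over 2-fold higher in all lane pairs (log2 ratio 1.61, from 1.39 to 1.81) and lost its call because 9.64% of APP/PS1-ApoeKO cells held it. Dip2a had a log2 ratio of 1.43 (0.85 to 2.00) and Dag1 one of 0.998 (0.93 to 1.07).

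The 4 genes at least 2-fold lower in all lane pairs were Kiz, Brcc3, Nup54 and Bzw2, and all of them met the rule without rows A and H as well. Kiz, which encodes the centrosomal protein kizuna, was read at 7.05 and 8.09 RPM in APP/PS1-ApoeKO cortex, against 33.4 and 30.6 RPM in C57BL/6-ApoeKO cortex, and was 4.21-fold (3.95 to 4.496) lower. Its log2 ratio was -2.01, and -1.32 without rows A and H, with 10.04 RPM in APP/PS1-ApoeKO and 25.8 RPM in C57BL/6-ApoeKO cortex. Its plates did not overlap, with 1.66 to 11.7 RPM in APP/PS1-ApoeKO and 17.05 to 46.5 RPM in C57BL/6-ApoeKO cortex, but 3 APP/PS1-ApoeKO cells held 57.1% of its reads in that group. Brcc3, a deubiquitinase that acts on the NLRP3 inflammasome, was read at 25.7 and 21.7 RPM in APP/PS1-ApoeKO cortex, against 61.8 and 57.1 RPM in C57BL/6-ApoeKO cortex (2.51-fold lower, 2.42 to 2.61). Nup54, a nuclear pore protein, was 2.96-fold lower and Bzw2, a translation regulator, 3.53-fold lower. Bzw2 overlaps Ankmy2 on the other strand, and their reads cannot be told apart without strand-specific counting.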

How the data were processed

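The deposited values were read counts per gene and cell for 29474 genes and 1878 cells. Per the submitters' processing notes the authors' tools were Seurat 2.3.1, featureCounts 1.5.1 and STAR 2.5.2, with mm10 as genome build and no role or order given. Per the labels' protocols, single live CD11b+ cells were sorted into plates, so counts are of reads from 1 cell, without molecular identifiers. The 334 APP/PS1-ApoeKO (165 in lane 33, 169 in lane 34), 313 C57BL/6-ApoeKO (157 in lane 37, 156 in lane 38), 311 APP/PS1 and 326 C57BL/6 cells were each added up by group, lane or plate, and the sums divided by all reads of those cells. No cell was left out and no doublet caller was run. Groups, lanes and plates were taken from the labels; each group is 1 sample, so no count model was fitted. Leading genes were the 12 highest and 12 lowest by the smallest lane-pair ratio, predicted genes aside. List members needed a mean of 1 RPM over the groups compared. The members and lists were chosen with earlier results of these data known. Gene positions came from GENCODE vM21. Scaling factors of edgeR 4.0.16 and DESeq2 1.42.0 in R 4.3.3 were tried as alternatives; other steps used Python 3.11.15, numpy 2.4.6, pandas 2.3.3, scipy 1.17.1 and matplotlib 3.10.9. Some items are not reported here.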

Additional observations from a re-analysis of the deposited data

Results flagged for a closer look

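Kiz had opposite differences in the presence and absence of Apoe. Its log2 ratio was -2.01 for APP/PS1-ApoeKO over C57BL/6-ApoeKO cortex and 1.02 for APP/PS1 over C57BL/6 cortex, and the lanes did not overlap in either comparison. Without the wells of rows A and H the log2 ratio without Apoe was -1.32. With Apoe it was read at 38.4 and 45.4 RPM in APP/PS1 cortex, against 24.5 and 16.9 RPM in C57BL/6 cortex. The difference between these ratios was not tested.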

How the results depend on the processing

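The share of genes at least 2-fold apart depended on the rule, and the cause was not tested. Against 0.428% higher and 0.0659% lower, lane 34 alone, the cells with a depth in the labels, gave 1.60% and 1.09%, no cells over 1000 RPM of other immune markers 0.687% and 0.213%, TMM scaling 0.280% and 0.115%, and a limit of 1 RPM with none on cells 2.82% and 1.74%. Sums alone gave 1.81% and 1.07%, 16 plate pairs 0.0329% and 0, a 1.5-fold limit 2.16% and 1.25%, and a 3-fold limit 0.0494% and 0.0165%. The lower share was 0.147% with the mean of cells, 0.153% with thinned cells, 0.115% with DESeq2 size factors and 0.259% without rows A and H, and the shares were 0.790% and 0.339% without the first and last row and column. The median of the activated list, 0.44, was 0.35 with lane 34 alone, 0.30 without the immune-marker cells, 0.34 with the mean of cells, 0.32 with thinned cells, 0.39 with TMM, 0.40 with DESeq2 size factors, 0.40 with 2 RPM added, 0.36 without rows A and H and 0.084 without the first and last row and column. Leaving out each lane or plate in turn gave 0.342% to 2.23% higher, 0.131% to 1.24% lower and medians of 0.21 to 0.46; a lane left out leaves 2 lane pairs, so fewer conditions apply. Of the 26 higher genes, 10 were shared without rows A and H, 12 without the first and last row and column, 14 with thinned cells and 17 with the mean of cells. Of the 477 named genes with at least 1 RPM, the log2 ratio kept its sign in at least 404 under each setting, the fewest with lane 34 alone, and in 406 without the first and last row and column. Among those considered and at least 2-fold apart in the sums, Tfrc was the one that changed sign under any of these settings, at -0.83 without the first and last row and column. The immune-marker limit acts mainly on Ighm. No paired analysis was possible because the replicate numbers only name wells. Reads without molecular identifiers, 1 sample a group and lanes not shared between the groups limit every comparison.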
